A study of Mus musculus with 6 samples.

Results

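The E2F transcription factor family, E2f1 to E2f8, was followed in sorted bone marrow pro-B cells with and without a deletion of Skiv2l. Its 8 members were taken by gene name from the 54752 gene identifiers of each expression table. All 8 were found once in every table, and all 8 were among the 13539 genes that reached 1 FPKM (fragments per kilobase of transcript, scaled to library size) in at least 3 libraries. Pro-B cells are the B lineage precursors that rearrange the immunoglobulin heavy chain gene. The cells came from adult C57BL/6 mice and were isolated by fluorescence-activated sorting. All 6 mice carried Skiv2lfl/fl, the floxed alleles of the gene for the SKI complex helicase. The 3 control mice have no Cre in their labels, and the 3 Skiv2l-deleted mice also carried Cd79a-Cre, a recombinase whose driver gene is active from the start of the B lineage. There was 1 strand-specific messenger RNA library per mouse. Because Cre goes with one group only, an effect of Cre cannot be told apart from an effect of the deletion.

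E2F proteins bind promoters of genes for DNA synthesis and cell division and tie their transcription to the cell cycle. E2F1, E2F2 and E2F3 are activators that bind DNA together with a DP protein and are held back by the retinoblastoma protein RB. E2F4 and E2F5 act mainly as repressors with the RB relatives p107 and p130, E2F6 represses through a Polycomb complex, and E2F7 and E2F8 repress without a DP partner. Cyclin-dependent kinases phosphorylate the RB family and so release the activators as cells enter S phase.

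Aligned bases per library came to 1.74 to 2.4 Gb, and the mean coverage of the 8 members lay between 10 and 294.8 over the libraries. Skiv2l itself had 25.4, 20.2 and 46.3 FPKM in control mice and 9.53, 16.1 and 10.9 FPKM after deletion. The groups did not overlap, and the difference was not called (limma adjusted p = 0.063). Control 3 and Skiv2l-deleted 2 stood apart from the other 4 libraries on the second principal component, which held 33.1% of the variance. These libraries had the highest sums of 8 myeloid marker genes, at 1289 FPKM in control 3 and 2274 FPKM in Skiv2l-deleted 2 against 82.9 to 462.3 FPKM in the others. Ngp did not follow this order and was highest in control 2 (58.3 FPKM) and Skiv2l-deleted 1 (49.6 FPKM). S100a9 was also higher in control 2 (217.5 FPKM) than in control 3 (177.2 FPKM), and it was highest in Skiv2l-deleted 2 (242.9 FPKM). The pro-B markers were present in every library, with 12 genes summing to 2945 to 4066 FPKM in controls and 4366 to 5427 FPKM in Skiv2l-deleted libraries. Of these 12 markers, 6 were called higher in Skiv2l-deleted cells and 1 lower, beside 4.97% and 3.87% of all genes tested. The lower one was Cd79a (log2 fold change -0.84, limma adjusted p = 0.0123), the driver gene of the Cre. The part of the Cre allele in the Cd79a value was not tested. The 10 markers of small pre-B, immature and mature B cells summed to 519.7 to 650.8 FPKM in controls. In Skiv2l-deleted libraries they summed to 184.9 to 302.5 FPKM. Of the 9 tested, 8 were called lower, beside 3.87% of all genes tested. Among them Fcer2a stood at 0.0554, 0.25 and 0.145 FPKM after deletion. It passed the filter only through the controls and had to differ to be tested. Sums in controls and in Skiv2l-deleted libraries were 470.5 to 519.8 and 468.6 to 498.1 FPKM for 7 plasma cell markers, 87.5 to 125.7 and 60.5 to 194.3 FPKM for 9 erythroid markers, and 5.74 to 18.8 and 14.0 to 44.3 FPKM for 8 T and NK cell markers. Within these lists Jchain (-5.53), Sdc1 (-1.29) and the transferrin receptor Tfrc (-0.79) were called lower, and Mzb1 (0.53) and Klrb1c (1.65) higher. Jchain stood at 0.0, 0.233 and 0.0821 FPKM in Skiv2l-deleted libraries. It passed the filter only through the controls and had to differ to be tested, so its call is not used here. Outside Skiv2l-deleted 2 most of the erythroid sum was Tfrc. The globin gene Hba-a1 stood at 59.4 FPKM in Skiv2l-deleted 2 and at 0.81 to 2.38 FPKM in the other libraries. Hbb-bs (47.5 FPKM) and Hbb-bt (25.8 FPKM) were also highest in Skiv2l-deleted 2. No marker of these lists was at 0 in all 6 libraries. In sorted bulk cells, a smaller share of cells of a kind and less RNA per cell cannot be told apart. The part of these marker differences in the E2F values was not tested.

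In control cells E2f2 was the most abundant member, and E2f4 and E2f8 followed. By mean FPKM, a scale that takes length into account, the order in controls was E2f2 (170.4), E2f4 (75.4), E2f8 (69.4), E2f1 (29.9), E2f7 (15.9), E2f6 (13.3), E2f3 (12.6) and E2f5 (6.27). The libraries of neighbouring members overlapped for E2f4 and E2f8 and for E2f6 and E2f3, and no others did. In Skiv2l-deleted cells E2f4 (73.1) and E2f2 (73.0) shared the top, and their libraries overlapped. They were followed by E2f8 (43.2), E2f1 (18.3), E2f6 (16.3), E2f3 (10.1), E2f7 (9.81) and E2f5 (5.62), where E2f3 and E2f7 overlapped. By FPKM E2f2 was the highest member in 4 of 6 libraries, and E2f4 was higher in Skiv2l-deleted 1 and Skiv2l-deleted 2. The deposited mean coverage gave another order in places. In controls it was higher for E2f3 (26.1, 21.5 and 16.7) than for E2f7 (19.1, 17.6 and 14.5) and E2f6 (10.6, 10.4 and 10.4). E2f5 (12.2 and 12.4) was above E2f6 in control 2 and control 3. In Skiv2l-deleted 2 the coverage of E2f2 (116.5) was above that of E2f4 (107.1).

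**Figure D1:**
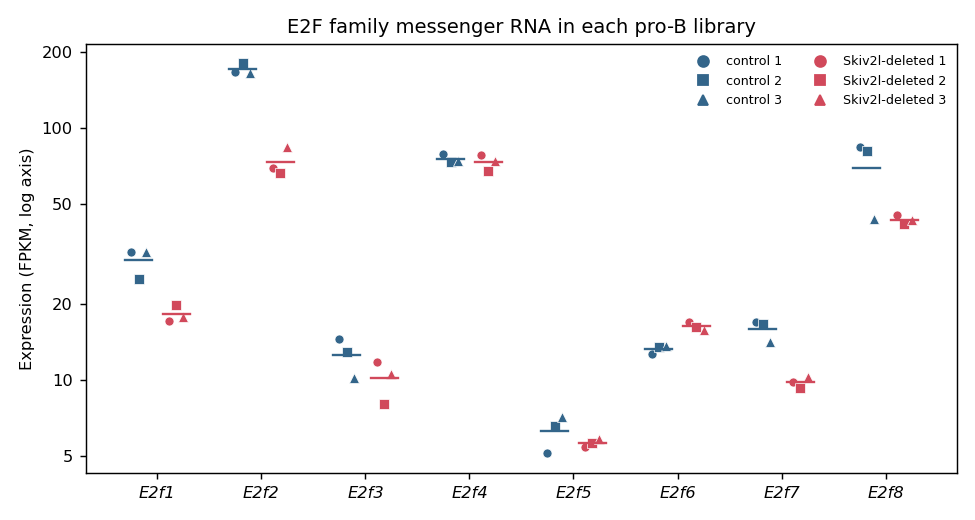
Expression of each E2F member (FPKM, log axis) in the 6 libraries, with control libraries in blue, Skiv2l-deleted libraries in red, and a bar at each group mean. E2f2 lies between 165.3 and 180.0 FPKM in controls and between 66.1 and 84.0 FPKM in Skiv2l-deleted libraries, while E2f4 overlaps between the groups and the E2f8 value of control 3 lies among the Skiv2l-deleted values.

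The family was selected on its FPKM in control against Skiv2l-deleted libraries, so the member differences below are a description and carry no p-value. A log2 fold change is the Skiv2l-deleted mean minus the control mean of log2(FPKM + 1), a scale that understates changes of low genes, and its standard error comes from the linear model fitted over all genes. That model called 3 of the 8 members, E2f1, E2f2 and E2f7, all lower, beside 8.84% of all genes tested (3.87% lower and 4.97% higher). The groups did not overlap for 4 members, these and E2f6, beside 32.2% of all genes tested (12.3% with the Skiv2l-deleted libraries lower). The number of members called was 1, E2f2, without control 1 and without each of the Skiv2l-deleted libraries in turn. It was also 1, E2f2, with a term for the replicate number in the model. It was 2 without control 2, with TPM and with no filter, and 4 without control 3, with E2f8 added. Nothing is read from these shares, since the contrast was the one in view.

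Among the activators, E2f2 differed most. Control libraries held 165.9, 180.0 and 165.3 FPKM and Skiv2l-deleted libraries 69, 66.1 and 84.0 FPKM. All values after deletion were far below all control values, and the controls were tightly grouped. That gave 170.4 ± 8.29 FPKM without and 73.0 ± 9.63 FPKM with the deletion (mean ± SD, n = 3), a ratio of 0.428 and a log2 fold change of -1.22 ± 0.12 (SE). Without control 3 and Skiv2l-deleted 2 it was -1.17.

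E2f1, the founding member, which also reaches promoters of cell death genes, stood at 32.3, 25.2 and 32.3 FPKM in controls and at 17.2, 19.9 and 17.7 FPKM in Skiv2l-deleted libraries. All Skiv2l-deleted libraries were below all controls. The log2 fold change was -0.67 ± 0.14 (SE), a smaller change than that of E2f2. Accordingly the ratio of E2f2 to E2f1 within a library was 5.14, 7.15 and 5.12 in controls and 4.0, 3.32 and 4.75 in Skiv2l-deleted libraries, again without overlap.

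E2f3, whose gene makes a long and a short protein form from separate start sites that a gene-level value adds together, stood at 14.5, 12.9 and 10.2 FPKM in controls and at 11.8, 8.0 and 10.6 FPKM in Skiv2l-deleted libraries. The groups overlapped, with control 3 below Skiv2l-deleted 1 and Skiv2l-deleted 3. Its log2 fold change of -0.29 ± 0.18 (SE) was -0.14 without Skiv2l-deleted 2 and -0.42 without control 3.

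The repressors that work with p107 and p130 differed little. E2f4 stood at 79.0, 73.4 and 73.8 FPKM in controls and at 77.8, 67.7 and 73.6 FPKM after deletion, a log2 fold change of -0.05 ± 0.10 (SE). Its groups overlapped, and its spread was small, at 4.17% of the mean in controls and 6.92% in Skiv2l-deleted libraries. E2f5, the lowest member by FPKM, stood at 5.11, 6.59 and 7.1 FPKM in controls and at 5.42, 5.6 and 5.82 FPKM in Skiv2l-deleted libraries. Those groups overlapped as well, with a log2 fold change of -0.13 ± 0.15 (SE). The last 26 bases of E2f5 lie over the end of 1810022K09Rik, a gene on the opposite strand at 61.3 to 82.7 FPKM. Whether strand was used in the authors' counting is not stated.

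E2f6, the Polycomb-linked repressor, was the only member with a higher mean in Skiv2l-deleted cells. It stood at 12.7, 13.5 and 13.6 FPKM in controls and at 17.0, 16.2 and 15.8 FPKM in Skiv2l-deleted libraries. Every Skiv2l-deleted library lay above every control, and the SD was 3.86% of the control mean and 3.82% of the Skiv2l-deleted mean. The log2 fold change was 0.28 ± 0.10 (SE) and was not called.

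Of the atypical repressors, E2f7 separated the groups and E2f8 did not. E2f7 stood at 17.0, 16.7 and 14.1 FPKM in controls and at 9.83, 9.31 and 10.3 FPKM after deletion, a log2 fold change of -0.64 ± 0.12 (SE) with no overlap. E2f8 stood at 83.8, 81.0 and 43.3 FPKM in controls and at 45.1, 41.6 and 42.9 FPKM in Skiv2l-deleted libraries. Control 3 lay among the Skiv2l-deleted libraries, and the other controls far above them. The log2 fold change was -0.61 ± 0.25 (SE), and -0.92 without control 3. It was not called in the 6 libraries, and without control 3 it was. Control 3 was also the control with the highest summed myeloid level (1289 FPKM), and the part of that in the E2f8 value was not tested. E2f8 shares 3639 bases with Gm2788, a transcript on the opposite strand that stood at 0.373 to 1.42 FPKM.

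**Figure D2:**
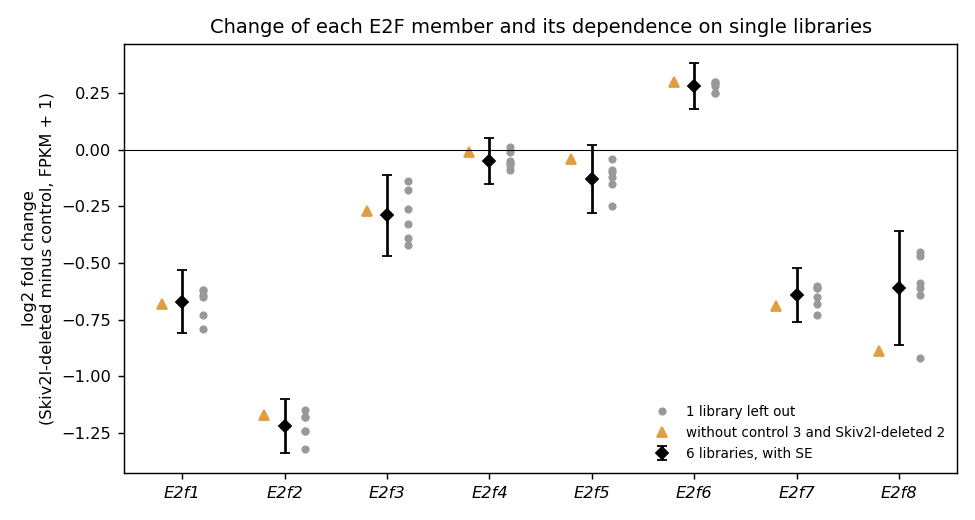
Log2 fold change of each E2F member (Skiv2l-deleted minus control, FPKM + 1) from all 6 libraries with its SE (black), with 1 library left out at a time (grey), and without control 3 and Skiv2l-deleted 2 (orange). E2f2 stays between -1.32 and -1.15 in the omissions, whereas E2f8 ranges from -0.92 without control 3 to -0.45 without control 1.

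The make-up of the family shifted from E2f2 toward E2f4. The summed level of the 8 members was 410.3, 409.3 and 359.6 FPKM in controls and 253.1, 234.4 and 260.7 FPKM in Skiv2l-deleted libraries. E2f2 supplied 43.5 ± 2.8% of it in controls against 29.2 ± 2.65% after deletion (SD, n = 3), and E2f4 supplied 19.2 ± 1.29% against 29.3 ± 1.29%. The activators E2f1, E2f2 and E2f3 together went from 54.3 ± 3.1% to 40.6 ± 2.24% (SD, n = 3), and no library of one group reached the other. E2f7 and E2f8 together held 21.5 ± 4.79% and 21.3 ± 0.755% (SD, n = 3), and the groups overlapped. The ratio of E2f2 to E2f4, which does not depend on the scaling of a library, was 2.1, 2.45 and 2.24 in controls and 0.886, 0.975 and 1.14 in Skiv2l-deleted libraries. These shares restate the member differences above as levels relative to each other.

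**Figure D3:**
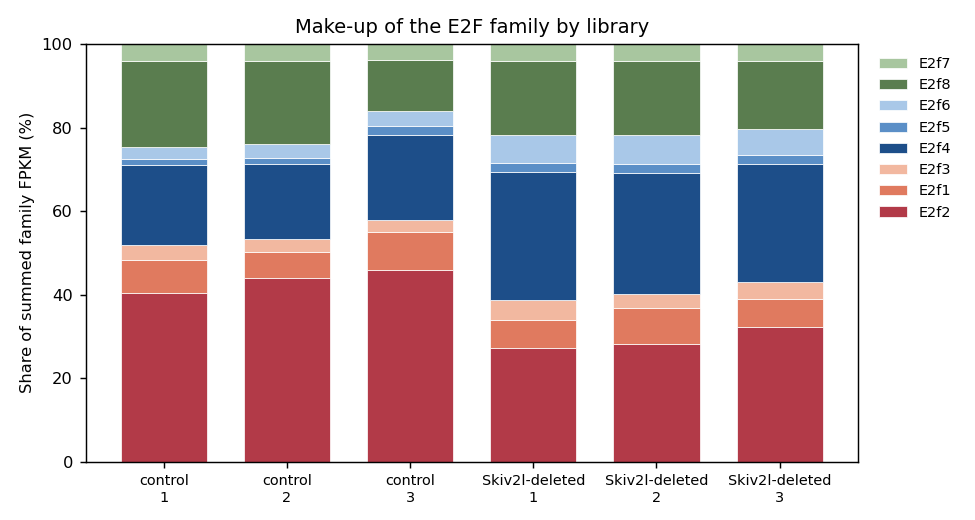
Share of the summed FPKM of the 8 E2F members (%) held by each member in every library, with activators in red, E2f4 to E2f6 in blue and the atypical members in green. The E2f2 share is 40.4% to 46.0% in controls and falls to between 27.2% and 32.2% after deletion.

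The members lie on 8 chromosomes. In GRCm38 coordinates E2f1 lies on chromosome 2 (154559407 to 154569892, minus strand), E2f2 on chromosome 4 (136172394 to 136196057, plus strand), E2f3 on chromosome 13 (29906575 to 29986063, minus strand) and E2f4 on chromosome 8 (105297663 to 105305370, plus strand). E2f5 lies on chromosome 3 (14578641 to 14606309, plus strand), E2f6 on chromosome 12 (16810963 to 16839742, plus strand), E2f7 on chromosome 10 (110745439 to 110787384, plus strand) and E2f8 on chromosome 7 (48866429 to 48881596, minus strand). Of 6 genes within 100 kb of E2f2, only Id3 and Zfp46 passed the filter, and neither was called. Id3, an inhibitor of E proteins, ends 26639 bases before E2f2 and had a log2 fold change of 0.04 ± 0.16 (SE, limma adjusted p = 0.914). For Zfp46, a zinc finger gene, it was 0.14 ± 0.15 (SE, limma adjusted p = 0.615). Both values were near 0.

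E2F genes are known targets of E2F proteins, so the RefSeq promoter windows (250 bases before to 50 after an annotated start, GRCm38.p6) were searched on both strands. The searched strings were TTTCCCGC, TTTGGCGC, TTTCGCGC and TTTGCCGC, the E2F consensus of TTT, then a pair of bases that are each C or G, then CGC. Windows were found for 6 of 8 members, and E2f2, E2f3 and E2f7 held a match in any window. By single window, 2.26% of all 32851 windows of that length held a match. By gene, as the members are counted, 439 tested genes held a match in any window and 8280 held none. The 3 windows are shown with the match in capitals because E2f2 and E2f7 were both lower while E2f3 overlapped between the groups.
E2f2, chr4:136172024-136172323, plus strand: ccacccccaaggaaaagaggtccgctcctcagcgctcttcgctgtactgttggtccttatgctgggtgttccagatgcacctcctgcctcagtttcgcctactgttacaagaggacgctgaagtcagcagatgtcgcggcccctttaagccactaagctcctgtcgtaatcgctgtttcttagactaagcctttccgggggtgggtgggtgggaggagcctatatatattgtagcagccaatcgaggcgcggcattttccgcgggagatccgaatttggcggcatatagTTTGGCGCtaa
E2f3, chr13:29986014-29986313, minus strand: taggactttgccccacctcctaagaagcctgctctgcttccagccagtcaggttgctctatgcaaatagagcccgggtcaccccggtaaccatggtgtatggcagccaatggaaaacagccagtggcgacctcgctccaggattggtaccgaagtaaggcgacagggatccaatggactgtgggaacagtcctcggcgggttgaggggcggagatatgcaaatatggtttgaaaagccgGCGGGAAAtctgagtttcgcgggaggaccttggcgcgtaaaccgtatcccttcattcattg
E2f7, chr10:110745189-110745488, plus strand: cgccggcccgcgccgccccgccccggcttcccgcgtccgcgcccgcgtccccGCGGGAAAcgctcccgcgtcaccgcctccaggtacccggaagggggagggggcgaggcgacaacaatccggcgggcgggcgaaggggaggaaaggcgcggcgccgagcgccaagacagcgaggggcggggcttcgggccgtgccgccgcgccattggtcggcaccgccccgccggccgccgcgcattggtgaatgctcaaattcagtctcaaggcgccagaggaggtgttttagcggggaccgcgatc
In E2f2 the match TTTGGCGC lies at 39 to 46 bases after the RefSeq start, which is 120 bases upstream of the GENCODE start. In E2f3 and E2f7 the windows hold TTTCCCGC on the other strand, read here as GCGGGAAA, at -11 to -4 and at -198 to -191 from the start. The further windows of E2f2 and E2f3, at internal starts, held no match. The windows of E2f1, E2f6 and E2f8 held none either. The E2f1 window lies 466 bases downstream of the GENCODE start of that gene and therefore does not cover it. With the first T left out, the 7-base strings, which lie inside the 8-base ones, were found in 4 members, with E2f8 added. They were in 9.57% of single windows. By gene, 1767 tested genes held a 7-base string and 6952 did not. TTTGAA, the cell cycle homology region bound by the MuvB complex, was found in windows of E2f2 (the internal start), E2f3 and E2f8. It was in 17.89% of single windows. By gene, 1285 tested genes held TTTGAA and 7434 did not. Members with a match were therefore found among those that were lower and among those that overlapped. A match is only a string of letters and does not show a bound site.

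Among tested genes with a promoter window, those with an 8-base E2F string had a higher share called lower, and so had those with TTTGAA. Of 439 tested genes with an 8-base E2F string, 29 (6.61%) were called lower and 13 (2.96%) higher. Of 8280 tested genes whose windows lacked it, 274 (3.31%) were called lower and 486 (5.87%) higher. The median log2 fold changes were -0.02 and 0.06. Of 1285 tested genes with TTTGAA, 83 (6.46%) were called lower and 83 (6.46%) higher. Of 7434 without it, 220 (2.96%) were called lower and 416 (5.6%) higher. These shares were not tested and are a description, since genes are not independent samples.

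The partners and inhibitors of E2F differed less than E2f2. Tfdp1, the main DP partner, had 141.5, 160.6 and 117.7 FPKM in controls and 163.9, 146.7 and 146.3 FPKM after deletion. Tfdp2 had group means of 24.8 ± 3.37 and 24.4 ± 3.0 FPKM (SD, n = 3 each). Both overlapped between the groups, with log2 fold changes near 0 (0.13 and -0.02). The pocket proteins Rb1, Rbl1 (p107) and Rbl2 (p130) had log2 fold changes of -0.39, -0.29 and -0.02, and 0 of 3 were called (limma, 3.87% of all genes tested were called lower). None of the 3 pocket protein genes or of the 2 DP genes had an unadjusted p under 0.05. The share of all genes tested under that unadjusted cutoff is not given here. Counts at the unadjusted cutoff, here and below, are therefore not read as an excess. Rb1 stood at 34.6, 33.4 and 17.4 FPKM in controls and at 20.6, 19.3 and 21.8 FPKM in Skiv2l-deleted libraries. As for E2f8, control 3 lay apart from the other controls, here below all Skiv2l-deleted libraries. Without control 3, 2 of the 3 pocket protein genes were called lower, beside 5.47% of all genes tested called lower in that setting.

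Of 5 genes of the cyclin E and cyclin A kinases, which inactivate the pocket proteins, 1 was called, beside 3.87% of all genes tested called lower, and 3 had an unadjusted p under 0.05. Cyclin A2 (Ccna2) fell by 0.78 on the log2 scale, from 235.3 ± 32.1 to 136.5 ± 16.2 FPKM (SD, n = 3; limma adjusted p = 0.0223). Cyclin E1 (Ccne1, -0.41), cyclin E2 (Ccne2, -0.20), Cdk2 (-0.30) and the activating phosphatase Cdc25a (-0.23) had values below 0 and did not pass. Of 4 genes that govern E2F turnover, 2 were called, beside the same 3.87%, and 3 had an unadjusted p under 0.05. The 3.87% is a share of calls and does not apply to the unadjusted counts. Cyclin F (Ccnf), a ubiquitin ligase subunit for activator E2Fs, fell from 64.8 ± 8.89 to 37.6 ± 1.57 FPKM (SD, n = 3; limma adjusted p = 0.0158). The anaphase-promoting complex activator Fzr1 fell by 0.53 on the log2 scale (limma adjusted p = 0.0381). Skp2 (-0.12) and the inhibitor gene Fbxo5 (-0.42) did not pass. The Ccna2 and Fzr1 calls were each lost in 5 of 6 omissions of 1 library, all but that of control 3 (highest limma adjusted p = 0.088 and 0.155). The Ccnf call was lost without Skiv2l-deleted 1 and without Skiv2l-deleted 3 (highest limma adjusted p = 0.08).

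The MuvB core assembles with p130 and E2F4 into the repressive DREAM complex and, later in the cycle, with B-MYB and FOXM1 into an activating one. Foxm1 fell by 0.84 on the log2 scale, from 109.9 ± 22.7 to 60.1 ± 0.471 FPKM (SD, n = 3; limma adjusted p = 0.0246), and it was the 1 of 7 genes that was called, beside 3.87% of all genes tested called lower. An unadjusted p under 0.05 was found for 4 of the 7, with no share of all genes beside it. The call was lost in 5 of 6 omissions of 1 library (highest limma adjusted p = 0.105) but held without control 3. The core genes Lin9 (-0.29), Lin37 (-0.47), Lin52 (-0.26), Lin54 (-0.22) and Rbbp4 (-0.30), and Mybl2 (-0.23), which encodes B-MYB, did not pass.

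Target genes were read in a G1/S list and a mitotic list. Of 41 genes of DNA replication and S phase entry known as E2F targets, 5 fell, 0 rose and 36 did not pass, beside 3.87% of all genes tested called lower and 4.97% higher. On the log2 scale 35 values were below 0 and 6 above, with a median of -0.32 against 0.06 over all genes tested. An unadjusted p under 0.05 was found for 23 of the 41, again with no share of all genes at that cutoff beside it. The 5 were the ribonucleotide reductase subunit Rrm2 (-0.74), the histone mRNA binder Slbp (-0.53), the Polycomb methyltransferase Ezh2 (-0.48), the replication initiation factor Mcm10 (-0.48) and the helicase subunit Mcm7 (-0.43). Rrm2 fell from 328.7 ± 51.8 to 195.4 ± 9.59 FPKM and Ezh2 from 345.2 ± 18.8 to 246.9 ± 8.84 FPKM (SD, n = 3). All 5 calls were lost in each omission of 1 library except that of control 3, which gave 10 genes of the list lower. With both control 3 and Skiv2l-deleted 2 left out, 9 genes of the list were called lower and 1 higher, beside 5.73% of all genes tested called lower.

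Of 18 mitotic genes regulated through DREAM, B-MYB and FOXM1, 12 fell, 0 rose and 6 did not pass, beside the same 3.87% called lower. An unadjusted p under 0.05 was found for 17 of the 18, with no share of all genes at that cutoff beside it. All 18 values were below 0, with a median log2 fold change of -0.71. Those with the largest changes among the called were cyclin B2 (Ccnb2, -0.96), its kinase Cdk1 (-0.90), topoisomerase II (Top2a, -0.79), the spindle midzone protein Prc1 (-0.77) and the anaphase-promoting complex activator Cdc20 (-0.76). Ccnb2 fell from 199.3 ± 13.0 to 102.1 ± 2.98 FPKM (SD, n = 3) and was called in each omission of 1 library (highest limma adjusted p = 0.0363). Over the omissions the count ran from 1 without Skiv2l-deleted 1 and 2 without Skiv2l-deleted 3 to 16 without control 3, with 6, 6 and 5 without control 1, control 2 and Skiv2l-deleted 2. The share of all genes tested that was called lower was 1.28%, 1.76% and 5.47% without control 1, 2 and 3, and 0.851%, 2.32% and 0.875% without Skiv2l-deleted 1, 2 and 3. The E2F string was present in 16 of 35 G1/S targets with a promoter window and in 1 of 15 mitotic targets, and TTTGAA in 6 and 10 of them.

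E2f2 was lower by more than any gene of either target list. None of the 41 G1/S and none of the 18 mitotic targets had a lower log2 fold change, and of all 13539 genes tested 224 did (1.65%). Per 1000 FPKM of the G1/S targets, E2f2 stood at 39.6, 40.4 and 42.4 FPKM in controls and at 19.7, 19.7 and 24.7 FPKM in Skiv2l-deleted libraries. Per 1000 FPKM of the mitotic targets it stood at 75.0, 67.6 and 68.6 FPKM against 47.4, 47.2 and 57.4 FPKM. On both scales the groups did not overlap. These differences were not tested.

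**Figure D4:**
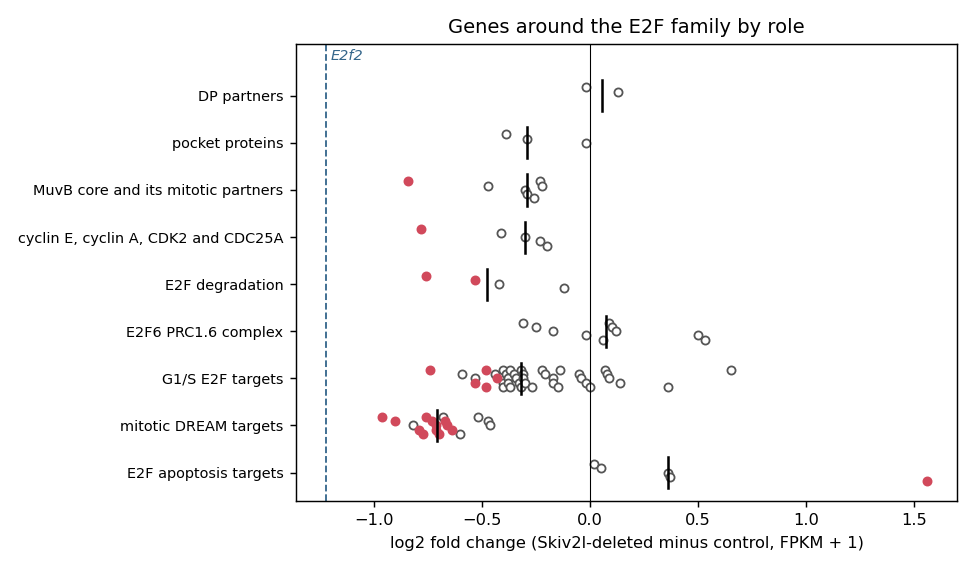
Log2 fold change (Skiv2l-deleted minus control, FPKM + 1) of each tested gene by role, with called genes filled in red, others open, and a bar at each list's median. The dashed line marks E2f2 at -1.22, below every gene shown, and the mitotic targets have a median of -0.71 against -0.32 for the G1/S targets.

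E2F6 joins MGA, MAX, PCGF6 and L3MBTL2 in a Polycomb complex that keeps germline genes off in somatic cells. Of 10 genes of this complex, 0 were called (limma), beside 8.84% of all genes tested, and 1, Pcgf6, had an unadjusted p under 0.05. The groups did not overlap for 32.2% of all genes tested. In this list 1 gene had all Skiv2l-deleted libraries above the controls and 1 had them below. The former was Pcgf6, at 5.68, 6.51 and 5.76 FPKM in controls and 11.1, 7.58 and 8.23 FPKM in Skiv2l-deleted libraries (log2 fold change 0.50, limma adjusted p = 0.108). The latter was L3mbtl2 (-0.25). The others were Mga (0.53), Max (0.12), Rnf2 (-0.02), Ring1 (0.09), Rybp (0.10), Yaf2 (-0.31), Cbx3 (-0.17) and Wdr5 (0.06), and their groups overlapped. Of 9 germline genes named as E2F6 targets, Tuba3a, Tuba3b, Smc1b, Slc25a31, Stk31, Mael and Ddx4 were listed at 0 in all 6 libraries. The cohesin gene Stag3 (-0.62) and the piRNA pathway gene Tdrkh (0.19) were tested and did not pass. Stag3 had no overlap, at 6.43, 5.06 and 8.01 FPKM in controls and 3.69, 4.2 and 3.62 FPKM after deletion (limma adjusted p = 0.0746). The groups of Tdrkh overlapped. Of these 2 genes, 1 had an unadjusted p under 0.05. With quantile normalization 1 gene of the list was called. Of the 5 tested genes among 8 that E2F1 can drive in cell death, Bbc3, which encodes PUMA, stood at 0.675, 0.963 and 0.927 FPKM in controls and at 3.14, 5.52 and 5.0 FPKM after deletion. It is also a p53 target. All controls were under 1 FPKM, so it passed the filter only through the Skiv2l-deleted libraries and had to differ to be tested, and its call is not used here. Apaf1 (0.02) and Bcl2l11 (0.36) did not pass, and Trp73, Pmaip1 and Cdkn2a were below the filter. Bcl2l11 had no overlap, at 13.5, 13.3 and 9.61 FPKM in controls and 15.7, 16.8 and 14.8 FPKM after deletion. Of the 5 tested, 3 had all Skiv2l-deleted libraries above the controls, Bbc3 included, beside the 32.2% without overlap in either direction. An unadjusted p under 0.05 was found for 3 of the 5, with no share of all genes beside it.

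The genes whose profile over the 6 libraries was most like that of E2f2 were found by the root-mean-square difference of log2(FPKM + 1) after each gene's mean was removed. The closest of 13538 was Nek2, a centrosome kinase of mitosis, at 68.3, 77.7 and 64.9 FPKM in controls and 26.7, 25.6 and 31.6 FPKM in Skiv2l-deleted libraries, with a difference of 0.06. Next came the ubiquitin ligase gene Neurl1b (0.076), the organic anion transporter Slco4a1 (0.096), the DNA helicase Pif1 (0.119) and the RNA-binding protein gene Carhsp1 (0.129). Within the family the closest to E2f2 were E2f7 at 0.305, in place 235, and E2f1 at 0.345, in place 356. With 6 libraries in 2 groups this likeness mostly reflects the size of the group difference.

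**Figure D5:**
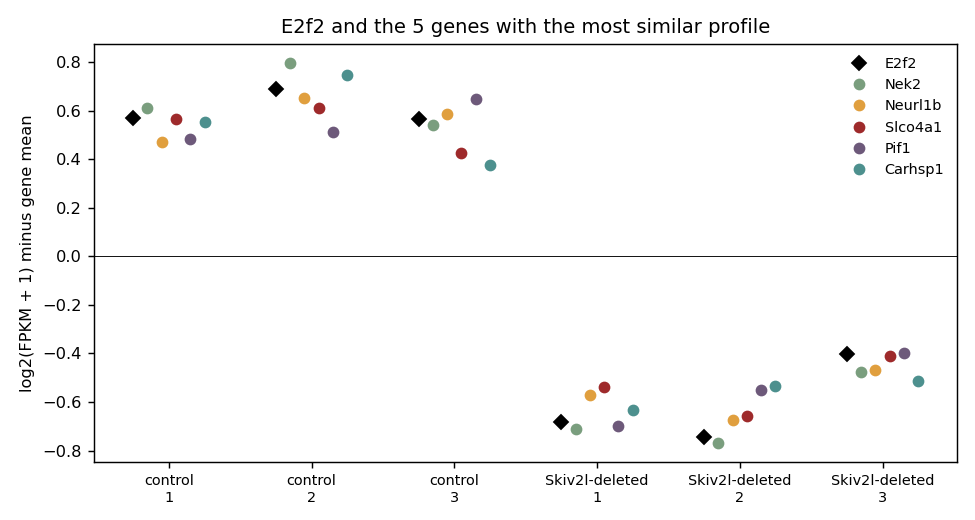
Level of E2f2 and of the 5 genes with the most similar profile in each library, as log2(FPKM + 1) minus the mean of the gene over the 6 libraries. All 6 genes lie above 0 in the 3 controls and below 0 in the 3 Skiv2l-deleted libraries.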

How the data were processed

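Messenger RNA of sorted pro-B cells was measured in 3 control and 3 Skiv2l-deleted mice. The authors deposited a table of genes per library with FPKM, TPM and mean coverage, per the file headers. Per the submitters' processing notes the genome was GRCm38. Which aligner and quantification tool were run is not given in the sources. Repeated identifiers, 7 to 9 per table, were summed. No read counts are given, so depth was taken from the ratio of deposited coverage signal to FPKM in genes with 1 transcript. Genes that reached 1 FPKM in 3 or more libraries were fitted on log2(FPKM + 1) with limma 3.58.1 in R 4.3.3 (trended eBayes), with genotype as the only term, and called at a Benjamini-Hochberg adjusted p below 0.05 over all genes. The fit was tested on simulated data with independent noise for each gene, so that test does not cover variation that genes share between libraries. Deposited TPM served as an alternative, beside another pseudocount, no filter, quantile normalization, immunoglobulin genes left out, no trend, a replicate block and omission of libraries.

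The members and lists were chosen with earlier results of these data known. Named were all members, each tested gene of lists of up to 10, the 5 called genes with the largest changes in longer lists, the 5 nearest profiles to E2f2 and tested genes within 100 kb of it. Promoter windows are RefSeq's (GRCm38.p6). Protein sequences were not used here. Some genes of the cell death list are not reported here. The labels do not say that mice were littermates or were handled together, so p-values measure the spread between these samples.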

Additional observations from a re-analysis of the deposited data

How the results depend on the processing

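Over 112 values of the 8 member changes under 14 alternatives, 111 moved by less than the member's residual SD between libraries. Omitting 1 library from a group of 3 cannot move a change by more than that SD. No filter, no trend and the replicate block leave the log2 fold change as it is. Most of this count was therefore fixed in advance, and it is not read as stability. E2f6 under quantile normalization (0.22) was the exception. In the omissions of 1 library E2f1 ranged from -0.79 to -0.62, E2f2 from -1.32 to -1.15, E2f3 from -0.42 to -0.14, E2f4 from -0.09 to 0.01, E2f5 from -0.25 to -0.04, E2f6 from 0.25 to 0.3, E2f7 from -0.73 to -0.6 and E2f8 from -0.92 to -0.45. Counts of calls moved more. Omissions gave 179 to 1749 genes called of all tested, 1 to 4 members, 0 to 10 G1/S targets lower and 1 to 16 mitotic targets lower, with the highest counts without control 3. Without a filter on level the counts were 512 genes, 2 G1/S targets and 7 mitotic targets. The G1/S count was 3 with TPM, 1 with quantile normalization and 9 without control 3 and Skiv2l-deleted 2. The r of deviations between same-numbered libraries was 0.0939, -0.428 and -0.355, and the numbers were used as names only. Control 3 and Skiv2l-deleted 2, which stood apart from the other libraries, had an r of 0.557. These values therefore cannot decide whether same-numbered mice were paired. With the replicate block 365 genes, 1 member, 0 G1/S targets and 1 mitotic target were called. The causes were not tested. No alternative reversed a called member or pathway gene. Groups of 3 limit every count, and E2f5, with a mean coverage of 10 to 13.9, was among the members with the fewest aligned bases per position.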
